A study of Mus musculus with 6 samples.

Results

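The proteasome genes described here are the mouse genes whose symbol begins with Psm, one letter from a to g and a digit: 49 of the 22180 genes read by the array. They were chosen by symbol alone, and where a gene had more than 1 probe set naming it alone, the one with the highest mean over the 6 arrays stood for it. They comprise 7 alpha and 8 beta subunits of the 20S core, 3 immunoproteasome subunits, 6 ATPases of the 19S particle and 14 genes named as its non-ATPases. Of these 14, Psmd5, Psmd9 and Psmd10 are chaperones of its assembly. The rest are 5 activators and inhibitors, 4 assembly chaperones, and Psmc3ip and Psme3ip1, which share the name pattern but are not proteasome subunits. RNA came from stimulated OVA-specific CD4+ T cells of OT II transgenic mice, aged 12 to 16 weeks, and was measured on 1-colour whole-transcript arrays. The T cells were stimulated by antigen-presenting cells with their OVA peptide for 72 hours in RPMI-1640 with dialyzed FBS, and CD4+ cells were purified again before lysis. In 3 samples the medium held 1% of the normal arginine (12 uM), and in 3 control samples it held the usual amount. The study drew on 6 mice and calls the samples biological replicates, without saying which mice gave which sample.

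The proteasome degrades proteins tagged with ubiquitin. Its barrel-shaped core encloses the proteolytic sites of Psmb5, Psmb6 and Psmb7, and the regulatory particle at its ends binds, unfolds and feeds in the substrate. Lymphocytes and cells exposed to interferon replace those 3 subunits with Psmb8, Psmb9 and Psmb10, which favours peptides that fit MHC class I. The amino acids it releases are one internal source when supply from outside falls short.

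Of the 49 genes, 48 were bright enough to enter the test over 14787 genes, and Psmb11, the thymus-specific beta subunit, was not. With all 6 arrays, 2 of the 48 passed the threshold (limma, Benjamini-Hochberg adjusted p below 0.05), against 12.2% of all genes tested. Both fell: Psmb9 of the immunoproteasome and Psmc6, an ATPase of the 19S particle. None was higher, against 5.19% of all genes called higher and 6.98% called lower. At an unadjusted p below 0.05 there were 6 members, against 27.3% of all genes. The median change over the 48 was 0.05 on the log2 scale, with a range of -0.62 to 0.53, beside 0.01 over all genes tested, and 0 members changed at least 2-fold. The 95% interval reached a median of 0.43 to either side of the log2 change over the members and 0.32 over all genes. The adjusted threshold is stricter than this interval, so smaller changes and some larger ones could go uncalled. Psma1 at -0.62 and Psmg2 at 0.53 did not pass.

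The result differed with one control array. Control replicate 1 gave the highest log2 level of the 6 arrays for 36 of the 48 members (75%), against 22.5% of all genes tested. It lay above both other controls for 42 members (87.5%), against 40.1% of all genes. In 27 members (56.2%) every low arginine array lay above control replicates 2 and 3, against 26.5% of all genes tested, and in all 27 control replicate 1 also lay above those 2 controls. Without control replicate 1, 15 members were higher in low arginine and 2 lower (31.2% and 4.17% of the members), against 11.0% and 11.5% of all genes tested. The 2 lower genes were again Psmb9 and Psmc6. Whether that array or the other controls stand for the usual medium cannot be told apart with 3 arrays. By limma 0 members passed when control replicate 2 or one of the low arginine arrays was left out (2 to 5 at an unadjusted p below 0.05), where 3.38% to 6.73% of all genes passed, and Psmb9 alone passed without control replicate 3. Weighting the arrays by their fit gave 15 higher and 5 lower members, where 37.3% of all genes passed.

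**Figure D1:**
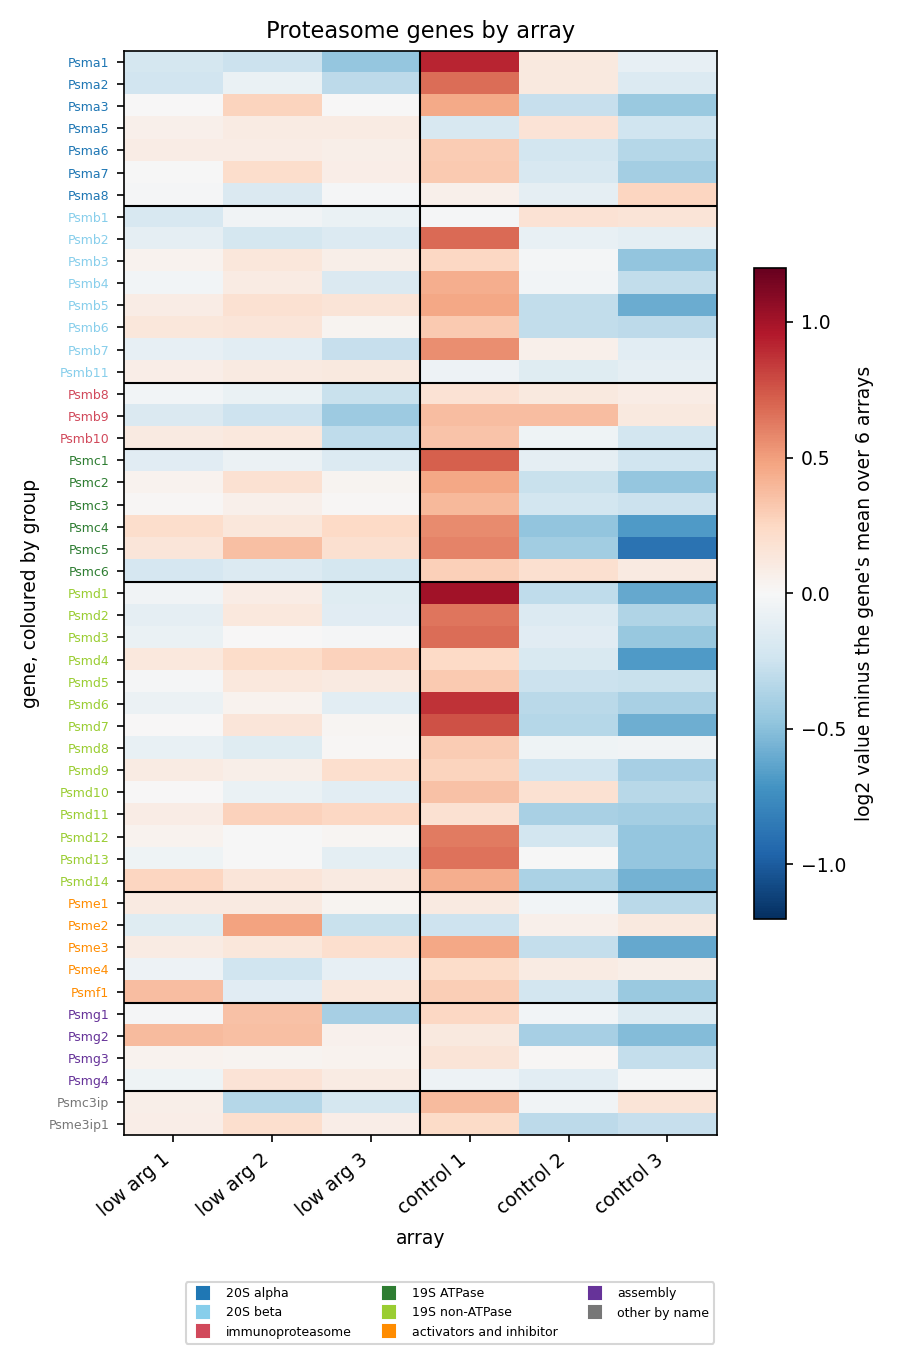
Each row is a gene and each column an array, low arginine at the left and control at the right, and colour gives the log2 value minus the gene's mean over the 6 arrays. Control replicate 1 is the reddest column for 36 of the 48 genes tested, while Psmb1, Psmb8, Psmb9, Psmc6 and Psme4 are lower on every low arginine array than on every control array, as is Psma1. Psmb11 is shown though it was not tested.

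The promoters of 2 of the 3 pairs of catalytic subunits that replace each other, Psmb8 with Psmb5 and Psmb9 with Psmb6, and of Psmc6 are shown because the comparison of the pairs and the 2 falls concern them. The promoter of Psmb10 held no match of the motifs searched and is not printed, and that of Psmb7 was not used here. Each run covers 250 bases before to 50 bases after the gene's start (RefSeq, build GRCm38.p6), is written in the direction of the gene, and has in capitals the matches, on either strand, of 4 motifs: the core of the antioxidant response element TGACNNNGC, bound by Nfe2l1 and Nfe2l2; the STAT site TTCNNNGAA; the interferon-stimulated pair GAAANNGAAA; and the CCAAT box CCAAT. Matches of different motifs did not overlap in these promoters.
Psmb5, chr14:54617946-54618245, minus strand: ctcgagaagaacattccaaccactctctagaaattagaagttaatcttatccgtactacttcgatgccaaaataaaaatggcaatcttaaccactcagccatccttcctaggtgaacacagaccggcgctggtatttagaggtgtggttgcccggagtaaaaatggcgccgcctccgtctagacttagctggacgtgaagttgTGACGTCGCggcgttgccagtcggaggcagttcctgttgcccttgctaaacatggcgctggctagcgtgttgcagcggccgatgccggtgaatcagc
Psmb8, chr17:34197945-34198244, plus strand: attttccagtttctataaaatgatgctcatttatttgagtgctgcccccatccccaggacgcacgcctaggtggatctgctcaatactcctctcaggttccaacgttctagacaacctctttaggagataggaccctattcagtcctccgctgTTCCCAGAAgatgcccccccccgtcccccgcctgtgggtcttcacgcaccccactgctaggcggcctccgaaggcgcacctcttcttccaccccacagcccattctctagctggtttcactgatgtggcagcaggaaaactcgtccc
Psmb6, chr11:70525107-70525406, plus strand: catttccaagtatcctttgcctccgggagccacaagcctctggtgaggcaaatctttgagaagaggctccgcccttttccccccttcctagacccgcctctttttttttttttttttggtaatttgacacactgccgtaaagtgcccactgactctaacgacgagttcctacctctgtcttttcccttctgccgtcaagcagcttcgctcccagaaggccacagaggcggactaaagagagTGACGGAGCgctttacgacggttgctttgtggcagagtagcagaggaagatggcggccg
Psmb9, chr17:34187281-34187580, minus strand: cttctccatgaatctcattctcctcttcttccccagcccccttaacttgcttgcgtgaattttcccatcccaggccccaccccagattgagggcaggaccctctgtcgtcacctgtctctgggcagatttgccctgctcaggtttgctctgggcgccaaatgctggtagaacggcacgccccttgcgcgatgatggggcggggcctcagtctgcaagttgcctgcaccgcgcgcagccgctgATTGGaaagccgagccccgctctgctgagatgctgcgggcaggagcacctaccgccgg
Psmc6, chr14:45329574-45329873, plus strand: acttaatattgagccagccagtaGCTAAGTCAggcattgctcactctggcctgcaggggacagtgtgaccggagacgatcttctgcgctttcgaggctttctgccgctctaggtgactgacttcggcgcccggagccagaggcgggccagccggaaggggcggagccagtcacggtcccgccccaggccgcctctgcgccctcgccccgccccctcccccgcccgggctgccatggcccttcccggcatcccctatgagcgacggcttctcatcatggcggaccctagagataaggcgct
The capitals are an antioxidant response core in Psmb5, Psmb6 and, on the opposite strand, Psmc6, a STAT site in Psmb8 and a CCAAT box, also on the opposite strand, in Psmb9. The core stands close to the start in Psmb5 and Psmb6, at bases -47 and -9, and far from it in Psmc6, at base -227. Promoters were read for 41 of the 49 genes. The antioxidant response core was found in 6 of them (14.6%), beside 14% of all genes with a promoter in the table, the STAT site in 3 (7.32%, beside 9.55%), the interferon-stimulated pair in 5 (12.2%, beside 3.99%) and the CCAAT box in 16 (39%, beside 41.1%). The 5 promoters with the interferon-stimulated pair belong to Psmb3, Psmd4, Psmd9, Psme1 and Psmg4. A match describes the letters and is no evidence of binding.

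Among the proteolytic subunits, only Psmb9 changed past the threshold. Psmb9, which replaces the caspase-like site of Psmb6, had log2 levels of 6.81, 6.73 and 6.54 in the low arginine arrays, against 7.35, 7.35 and 7.10 in the control arrays. The groups did not overlap, and Psmb9 fell by 0.57 on the log2 scale, or to 0.673 of the control level (95% interval -0.86 to -0.28, limma adjusted p = 0.0273). Its log2 change was -0.53 without control replicate 1 (adjusted p = 0.0261). The call was lost when control replicate 2, or one of the low arginine arrays, was left out (adjusted p = 0.056 to 0.108), the log2 change staying between -0.66 and -0.50 over all arrays left out in turn.

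Psmb8, which replaces the chymotrypsin-like site of Psmb5, had log2 levels of 8.96, 8.91 and 8.73 in the low arginine arrays and 9.17, 9.11 and 9.08 in the control arrays. Every low arginine array lay below every control array, but the log2 difference of -0.25 did not pass (adjusted p = 0.188). Psmb10, which replaces the trypsin-like site of Psmb7, had log2 levels of 7.66, 7.68 and 7.25 in low arginine, against 7.89, 7.50 and 7.33 in control medium. These overlapped, with a log2 difference of -0.04 (adjusted p = 0.926). Of the 3 immunoproteasome subunits, 1 thus fell and 2 did not pass.

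The constitutive sites did not pass with all arrays. Psmb6 had log2 levels of 7.24, 7.25 and 7.14 in the low arginine arrays, against 7.42, 6.81 and 6.79 in the control arrays, a log2 difference of 0.20 (adjusted p = 0.531). Psmb5 had log2 levels of 6.78, 6.88 and 6.85 in low arginine and 7.16, 6.40 and 6.10 in control medium, a log2 difference of 0.28 (adjusted p = 0.54). For both, the low arginine arrays lay between control replicate 1 and the other 2 controls. Without control replicate 1 both were higher in low arginine, with log2 differences of 0.41 (adjusted p = 0.0272) and 0.58 (adjusted p = 0.0147). Psmb7 had log2 levels of 8.13, 8.10 and 7.95 in low arginine, against 8.78, 8.29 and 8.10 in control medium, a log2 difference of -0.33 (adjusted p = 0.289) with overlap.

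The difference within each pair was compared directly, since it cancels what moves both subunits equally on an array. Control replicate 1 did not move all pairs equally. It exceeded the mean of the other controls by 0.07 for Psmb8 and 0.91 for Psmb5 on the log2 scale. These values were 0.12 for Psmb9 and 0.61 for Psmb6, and 0.47 for Psmb10 and 0.59 for Psmb7. The differences of Psmb8 and Psmb9 from their counterparts are therefore not free of that array. A difference between probe sets shows unequal change, not which subunit is more abundant. Psmb9 minus Psmb6 was -0.43, -0.52 and -0.60 on the log2 scale in the low arginine arrays, against -0.07, 0.54 and 0.30 in the control arrays. It was lower in low arginine by -0.78 with no overlap (exact permutation test, two-sided, p = 0.1, or 0.15 adjusted over the 3 pairs). Psmb8 minus Psmb5 was 2.19, 2.03 and 1.88 in low arginine and 2.01, 2.71 and 2.98 in control medium, a log2 difference of -0.53 with overlap (exact permutation p = 0.3, adjusted 0.3). That difference was -0.81 without control replicate 1 and -0.32 without control replicate 3. Psmb10 minus Psmb7 ran the other way, at -0.47, -0.42 and -0.70 in low arginine, against -0.90, -0.79 and -0.77 in control medium, a log2 difference of 0.29 with no overlap (exact permutation p = 0.1, adjusted 0.15). With 3 arrays a group this test cannot go below 0.1, so none of the 3 pairs could reach the threshold. Against their counterparts, Psmb8 and Psmb9 were thus lower and Psmb10 higher in low arginine by mean.

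**Figure D2:**
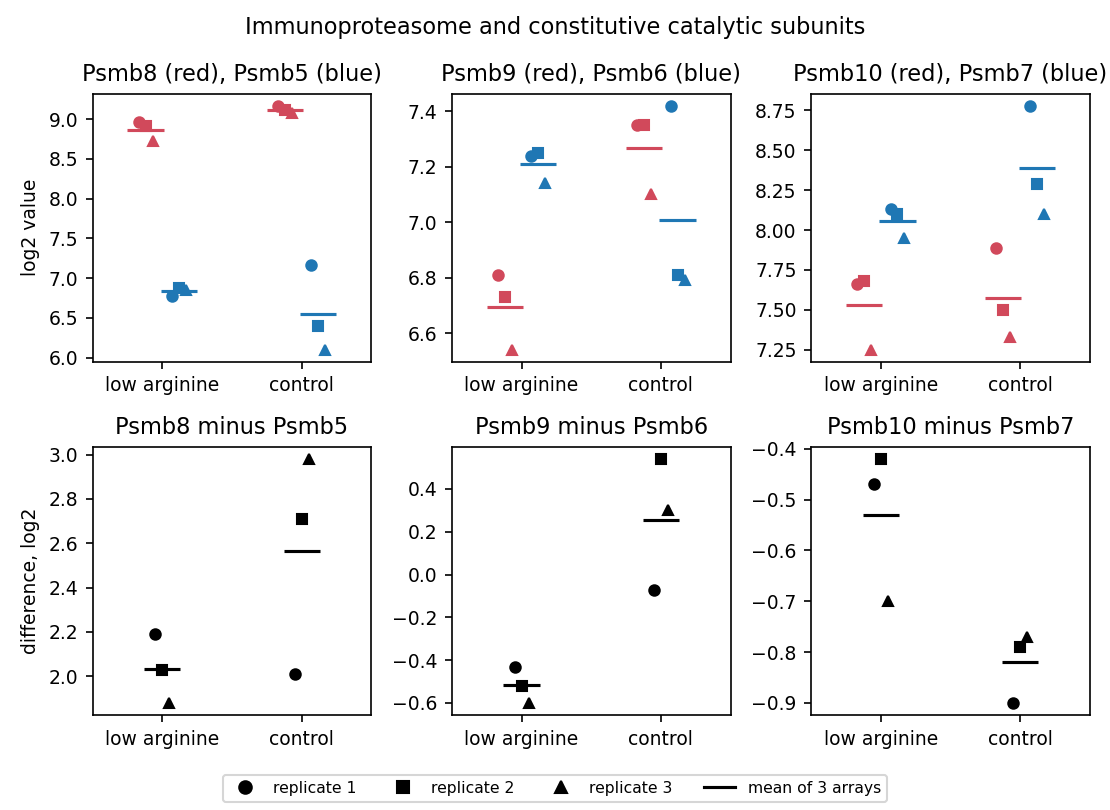
The upper row gives the log2 level of each immunoproteasome subunit (red) and its constitutive counterpart (blue) on every array, low arginine left and control right; the lower row gives their difference on each array. Bars are means of 3 arrays, symbols mark replicate numbers, and levels of different probe sets are not comparable. Psmb9 minus Psmb6 is at or below -0.43 on every low arginine array and at or above -0.07 on every control array.

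Psmb9 and Psmb8 lie in the MHC class II region with Tap1 between them and Tap2 beside Psmb8. Tap1, a subunit of the peptide transporter of MHC class I loading, had log2 levels of 9.62, 9.47 and 9.37 in low arginine, against 9.43, 9.59 and 9.60 in control medium, a log2 difference of -0.05 (adjusted p = 0.832). Of 13 tested genes of MHC class I presentation and its regulators, 0 passed by limma in either direction with all arrays. The share over all genes tested was 12.2%. Log2 differences were 0.04 for Tap2 and 0.20 for Irf1, an interferon-induced factor that drives these genes (adjusted p = 0.891 and 0.42). Nlrc5, the activator of MHC class I genes, had log2 levels of 7.63, 7.44 and 7.44 in low arginine and 7.03, 6.98 and 7.29 in control medium (log2 difference 0.40, adjusted p = 0.081). Without control replicate 1, 1 of the 13 was higher, Erap1, which trims peptides in the endoplasmic reticulum (log2 difference 0.51, limma adjusted p = 0.0155). In that fit 11.0% of all genes tested were higher.

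Antigen-presenting cells also carry the immunoproteasome, so their markers are given beside Psmb9. Of 7 B cell markers matched, 5 entered the test and 0 passed, and the sum of their log2 levels was 18.08 to 18.88 in low arginine and 18.07 to 18.86 in control medium. Of 10 dendritic cell and macrophage markers, 6 were tested and 0 passed, with sums of 26.47 to 27.92 in low arginine and 26.39 to 27.33 in control medium. Of these, Batf3 had log2 levels of 4.30, 3.74 and 3.62 in low arginine and 4.85, 4.97 and 4.01 in control medium (log2 difference -0.73, limma adjusted p = 0.142). It passed as lower with array weights and without control replicate 3 (-1.02 and -1.03, adjusted p = 0.00475 and 0.0339). Ms4a1, Fcrla, Lyz2, Cd14, Adgre1 and Siglech lay under the limit for dim genes (2.484). The tested B cell markers lay near it, with mean log2 levels of 2.49 (Cd22) to 3.15 (Cd79b). So did the tested dendritic cell and macrophage markers other than Batf3, at 2.49 (Itgax) to 3.22 (Zbtb46). Little can therefore be read from these sums or from the lack of calls. Of 6 markers of CD8 and NK cells 4 were tested and 0 passed, with sums of 22.18 to 22.91 in low arginine and 22.42 to 24.51 in control medium. Klrb1c and Ncr1 lay under the dim limit (mean log2 levels of 2.16 and 2.43). Cd8a, Cd8b1 and Klrd1 fell and Eomes was higher when control replicate 1 was left out (log2 changes of -0.95, -0.85, -0.90 and 1.04, limma adjusted p = 0.00857, 0.00588, 0.00679 and 0.00561). That fit called 11.0% of all genes tested higher and 11.5% lower. Of 4 plasma cell markers 3 were tested. Xbp1 and Prdm1, which activated T cells also express, fell (-0.76 and -1.36 on the log2 scale, limma adjusted p = 0.0157 and 0.00474), where 6.98% of all genes tested were lower. Sdc1 did not pass (0.03, limma adjusted p = 0.911), and Jchain lay under the dim limit at a mean log2 level of 2.09. The sums, which include Xbp1 and Prdm1, were 18 to 18.56 in low arginine and 20.3 to 20.81 in control medium. The 5 T cell markers matched, Cd3e, Cd3d, Cd3g, Cd4 and Cd5, did not pass, with sums of 47.98 to 49.08 in low arginine and 48.14 to 49.32 in control medium. The part of any of these cells in the fall of Psmb9 was not tested. In such bulk samples, fewer cells of a type and less RNA per cell cannot be told apart.

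The alpha ring, which gates entry to the core, held no called gene. Psma1 had log2 levels of 7.00, 6.95 and 6.75 in low arginine, against 8.13, 7.33 and 7.11 in control medium. The groups did not overlap, and control replicate 1 lay far above the rest; the log2 difference of -0.62 did not pass (adjusted p = 0.151), and was -0.32 without that array (adjusted p = 0.118). Psma2 had 7.93, 8.08 and 7.84 in low arginine, against 8.83, 8.28 and 7.99 in control medium, with a log2 difference of -0.41 (adjusted p = 0.252). No alpha subunit but Psma1 had separate groups. Psma3 had log2 levels of 8.34, 8.61 and 8.34 in low arginine, against 8.79, 8.06 and 7.89 in control medium (log2 difference 0.18, adjusted p = 0.684). Psma7 had 7.96, 8.18 and 8.05 in low arginine and 8.28, 7.77 and 7.56 in control medium (log2 difference 0.20, adjusted p = 0.575). Psma3 and Psma6 were higher without control replicate 1, with log2 differences of 0.45 and 0.36 (adjusted p = 0.0425 and 0.0416). Psma5 and the testis alpha subunit Psma8 lay within 0.3 of the dim limit of 2.48 by mean log2 level (2.54 and 2.75), so little can be read from them. Psma4, measured only by probe sets that also name another gene, did not enter the test.

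Among the other beta subunits, Psmb1 had log2 levels of 8.59, 8.74 and 8.70 in low arginine, against 8.76, 8.95 and 8.93 in control medium. The groups did not overlap, by a margin of 0.02, and the log2 difference of -0.20 did not pass (adjusted p = 0.285). Psmb2, Psmb3 and Psmb4 differed by -0.32, 0.17 and -0.07 on the log2 scale, with overlap in each. Psmb11 was dim, at a mean log2 level of 2.40.

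The ATPase ring of the 19S particle, which unfolds substrates, held the other fall. Psmc6 had log2 levels of 7.95, 7.99 and 7.94 in the low arginine arrays, against 8.44, 8.35 and 8.26 in the control arrays. The groups did not overlap, and it fell by 0.39 on the log2 scale, or to 0.762 of the control level (95% interval -0.63 to -0.15, limma adjusted p = 0.0469). The call lay close to the threshold: it held without control replicate 1 (-0.35, adjusted p = 0.047) and ended without any other single array (adjusted p = 0.0593 to 0.152).

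The 5 other ATPases did not pass with all arrays. Psmc5 had log2 levels of 6.47, 6.69 and 6.52 in low arginine, against 6.92, 5.91 and 5.44 in control medium, and Psmc4 had 8.62, 8.54 and 8.65 in low arginine, against 8.97, 7.93 and 7.73 in control medium. In both the low arginine arrays stood close together, below control replicate 1 and above the other controls. Their log2 differences of 0.47 and 0.39 did not pass (adjusted p = 0.433 and 0.461). Without control replicate 1 they were the ATPases with the largest differences, 0.89 and 0.77 on the log2 scale (adjusted p = 0.00721 and 0.00356), and Psmc2 was higher as well (0.45, adjusted p = 0.0286). With all arrays the log2 differences of Psmc3 and Psmc1 were 0.06 and -0.25 (adjusted p = 0.891 and 0.568). Control replicate 1 was the highest of the 6 arrays for all 6 ATPases.

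The 14 non-ATPase genes cover the lid, ubiquitin receptors and scaffold of the 19S particle, with the base chaperones Psmd5, Psmd9 and Psmd10. They held 0 called genes by limma with all arrays and 1 at an unadjusted p below 0.05. Control replicate 1 lay above both other controls for all 14, by a median of 0.89 on the log2 scale, against 0.01 over all genes tested. Psmd1, the large scaffold subunit, showed this most, with log2 levels of 7.12, 7.25 and 7.02 in low arginine, against 8.17, 6.86 and 6.55 in control medium. Its log2 difference was -0.06 with all arrays (adjusted p = 0.944) and 0.43 without control replicate 1 (adjusted p = 0.0591). Psmd7, which carries the deubiquitinase Psmd14, had 7.62, 7.76 and 7.64 in low arginine and 8.38, 7.27 and 7.03 in control medium. Its log2 difference was 0.11 with all arrays and 0.52 without that one (adjusted p = 0.867 and 0.0192).

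Psmd11, a lid subunit, had log2 levels of 8.52, 8.71 and 8.68 in low arginine, against 8.61, 8.04 and 8.02 in control medium (log2 difference 0.41, adjusted p = 0.177). Psmd4, the ubiquitin receptor, had 6.98, 7.08 and 7.13 in low arginine and 7.09, 6.67 and 6.18 in control medium (log2 difference 0.42, adjusted p = 0.264). Psmd14, which removes ubiquitin from substrates, had 6.95, 6.84 and 6.80 in low arginine and 7.13, 6.31 and 6.13 in control medium (log2 difference 0.34, adjusted p = 0.444). All 3 were higher without control replicate 1, by 0.61, 0.64 and 0.64 on the log2 scale (adjusted p = 0.00801, 0.0248 and 0.00735). Psmd8 had log2 levels of 8.74, 8.69 and 8.85 in low arginine and 9.14, 8.78 and 8.79 in control medium (log2 difference -0.14, adjusted p = 0.564). Psmd5, Psmd9 and Psmd10, chaperones that help assemble the base rather than stay in it, differed by 0.14, 0.25 and -0.13 on the log2 scale. Of these, Psmd9 was higher without control replicate 1 (0.44, adjusted p = 0.0265). The others, Psmd2, Psmd3, Psmd6, Psmd12 and Psmd13, differed by between -0.12 and 0.04 on the log2 scale with all arrays.

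**Figure D3:**
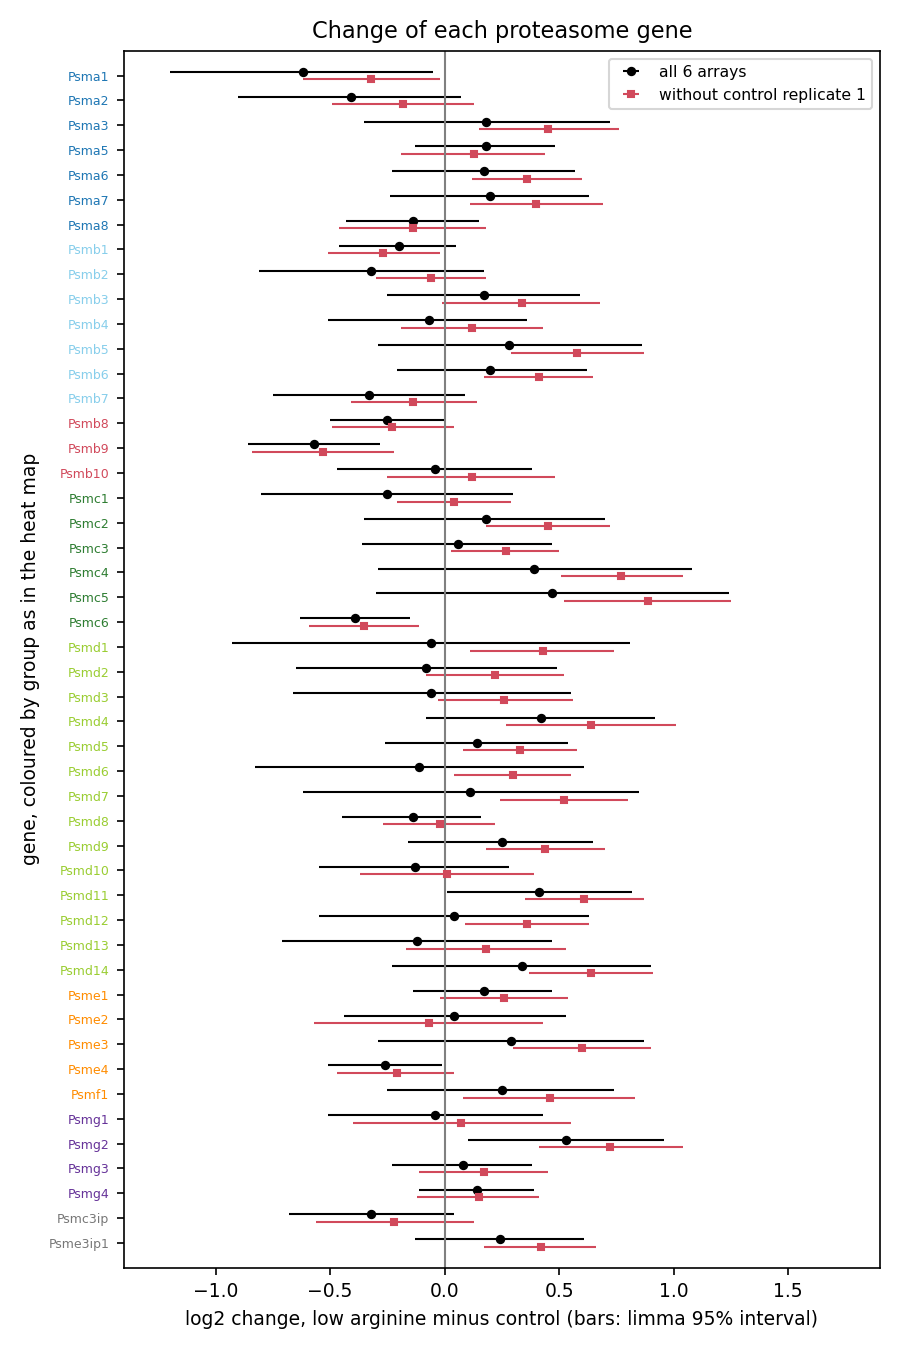
Points give the log2 change of each of the 48 genes tested, low arginine minus control, with limma's 95% interval, in black from all 6 arrays and in red without control replicate 1. With all arrays the intervals are wide and 2 genes, Psmb9 and Psmc6, passed the threshold; without that array 44 of 48 changes lie further to the right, and 15 passed as higher.

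Among the activators, which open the core without ubiquitin or ATP, none passed with all arrays. Psme1, which forms the interferon-induced activator with Psme2, had log2 levels of 9.59, 9.59 and 9.52 in low arginine and 9.59, 9.45 and 9.16 in control medium (log2 difference 0.17, adjusted p = 0.49). Psme2 had 4.60, 5.23 and 4.48 in low arginine and 4.50, 4.81 and 4.87 in control medium (log2 difference 0.04, adjusted p = 0.931). A further probe set that names Psme2 with 2 other genes, and did not enter the test, had 6.92, 6.87 and 7.09 in low arginine, against 6.28, 6.55 and 6.91 in control medium (exact permutation p = 0.2), so the level of Psme2 is uncertain. Psme3, the nuclear activator, had 6.28, 6.32 and 6.39 in low arginine and 6.65, 5.90 and 5.57 in control medium. Its log2 difference was 0.29 (adjusted p = 0.526), and 0.60 without control replicate 1 (adjusted p = 0.015). Psme4, the large activator tied to acetylated histones, had 7.37, 7.19 and 7.33 in low arginine, against 7.65, 7.53 and 7.50 in control medium. The groups did not overlap, and the log2 difference of -0.26 did not pass (adjusted p = 0.171). Psmf1, described as an inhibitor of the core, had 7.62, 7.12 and 7.39 in low arginine and 7.55, 7.03 and 6.81 in control medium (log2 difference 0.25, adjusted p = 0.529).

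Psmg2, which pairs with Psmg1 to build the alpha ring, had the largest positive log2 difference of the 48. Its log2 levels were 7.29, 7.27 and 6.96 in low arginine, against 7.02, 6.51 and 6.39 in control medium, with overlap through control replicate 1. The difference of 0.53 did not pass (adjusted p = 0.11) and was 0.72 without that array (adjusted p = 0.00899). Its second probe set, at a mean log2 level of 2.30 in low arginine and 2.38 in control medium, was too dim to bear on this. Psmg1 had 6.13, 6.50 and 5.75 in low arginine and 6.40, 6.12 and 5.99 in control medium (log2 difference -0.04, adjusted p = 0.928). Psmg3 and Psmg4, the second pair of chaperones, had log2 differences of 0.08 and 0.14 (adjusted p = 0.78 and 0.467). Psmg3 had log2 levels of 4.80, 4.79 and 4.80 in low arginine and 4.91, 4.77 and 4.47 in control medium. Psmg4 had 3.56, 3.77 and 3.71 in low arginine and 3.55, 3.48 and 3.59 in control medium.

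Of the 2 genes that share the name pattern but are not subunits, Psmc3ip is a recombination protein. It had log2 levels of 4.21, 3.80 and 3.93 in low arginine and 4.52, 4.10 and 4.30 in control medium. It differed by -0.32 on the log2 scale (limma adjusted p = 0.232). Psme3ip1, a partner of Psme3, had 7.86, 7.98 and 7.86 in low arginine and 8.01, 7.47 and 7.50 in control medium and differed by 0.24 (adjusted p = 0.4), and by 0.42 without control replicate 1 (adjusted p = 0.0274). Leaving both aside, 14 of 46 proteasome genes were higher without control replicate 1, against 11.0% of all genes tested.

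The low arginine and control arrays did not overlap for 6 of 48 members (12.5%), all 6 lower in low arginine: Psma1, Psmb1, Psmb8, Psmb9, Psmc6 and Psme4. Over all genes tested they did not overlap for 32.2%, with 16.2% lower and 16.0% higher in low arginine. The low arginine arrays themselves lay close together. The median SD over the 48 members was 0.08 on the log2 scale over the low arginine arrays and 0.36 over the control arrays, beside 0.12 and 0.18 over all genes tested. The control SD was the larger one for 43 of 48 members (89.6%), against 66.2% of all genes tested.

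**Figure D4:**
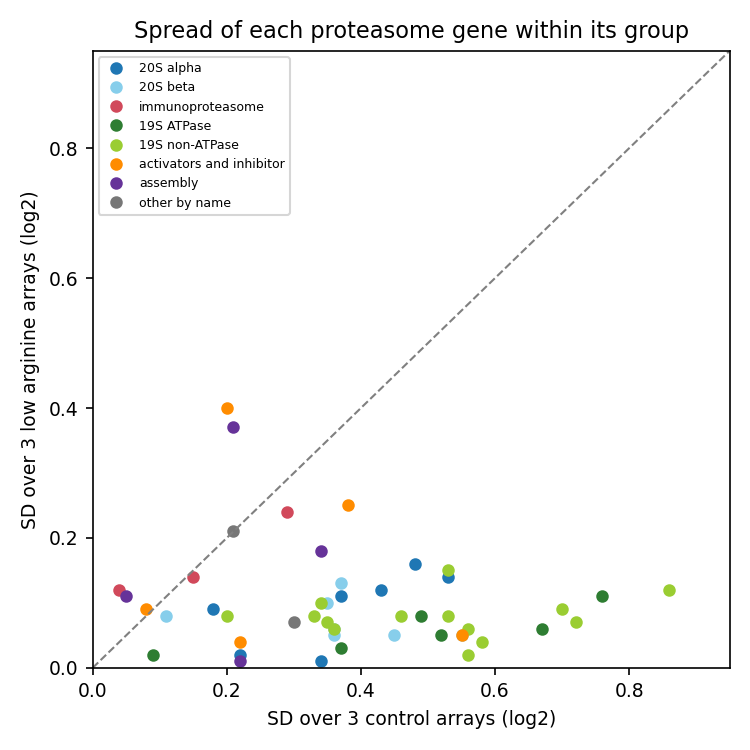
Each point is 1 of the 48 genes tested, with its SD over the 3 control arrays on the x axis and over the 3 low arginine arrays on the y axis, both on the log2 scale; the dashed line marks equal SD. For 43 genes the point lies under the line, the 19S genes farthest to the right.

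The arrays can be set beside each other by the median, over the members, of the log2 value minus the gene's mean over the 6 arrays. It was 0.0024, 0.09 and 0.01 in low arginine replicates 1, 2 and 3, against 0.34, -0.13 and -0.32 in control replicates 1, 2 and 3. Over all genes tested these medians lay between -0.02 and 0.01. Over 19 mitosis genes, all of which fell, low arginine replicate 1 stood apart, at -0.13 against -1.45 and -1.70 in the other low arginine arrays, with 1.10, 1.11 and 1.17 in control medium. Of all genes tested, 6.98% were lower with all arrays. With single arrays left out, 3 to 19 of the mitosis genes passed, where 3.38% to 22.5% of all genes passed. The median log2 change of the mitosis genes stayed between -2.80 and -1.88. The proteasome members did not divide the arrays in that way. The sum of log2 levels over the mitosis genes was 95.16 to 124.9 in low arginine and 148.2 to 149 in control medium. The part of cell division in any value given here was not tested.

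**Figure D5:**
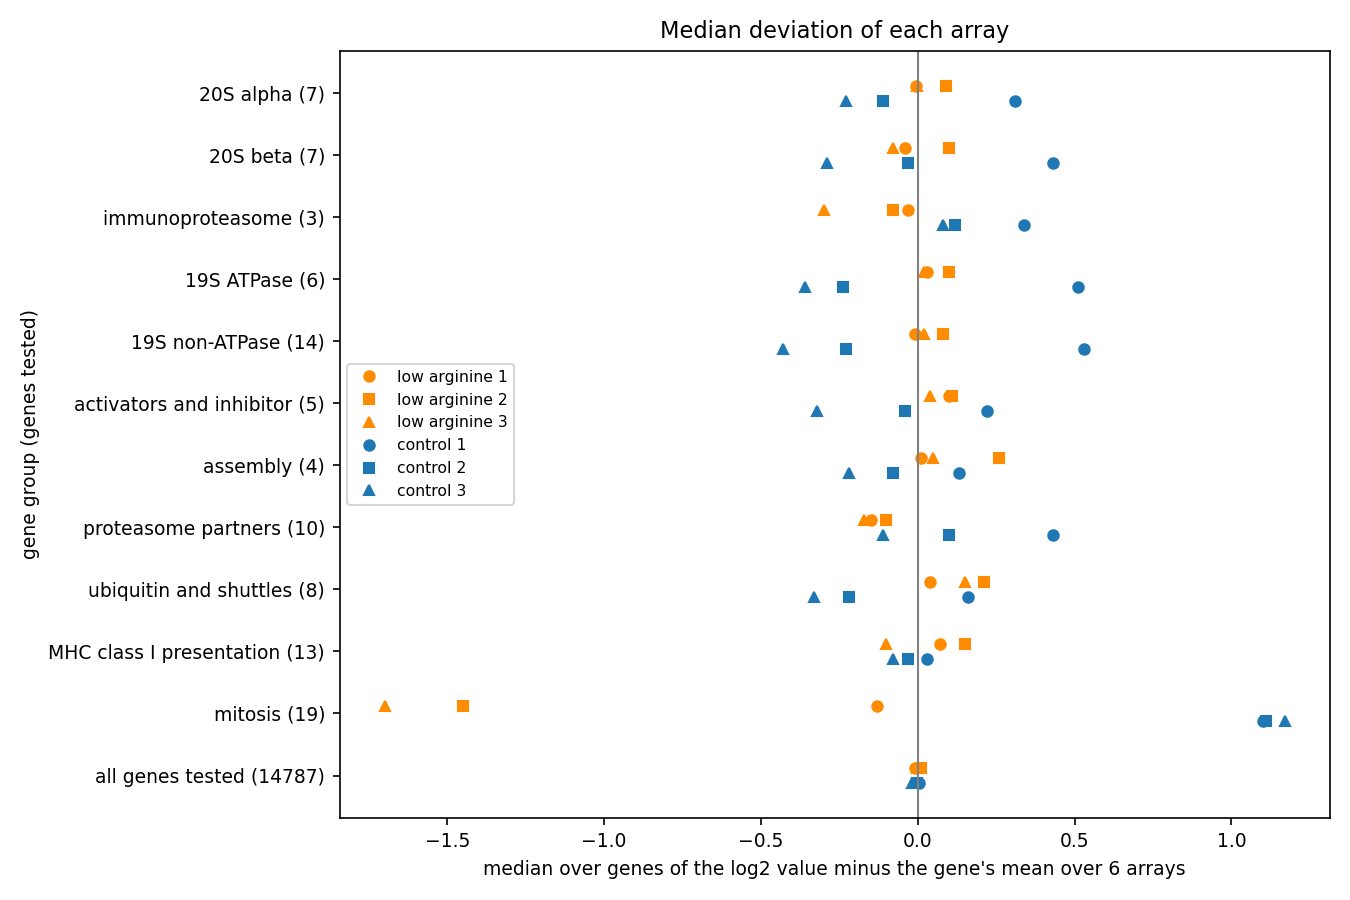
For each group of genes (number tested in brackets), each point is 1 array's median, over the genes, of the log2 value minus the gene's mean over 6 arrays; orange is low arginine, blue control, and symbols mark replicate numbers. Control replicate 1 lies to the right of the other controls in every proteasome group, and in the immunoproteasome the 3 low arginine arrays lie to the left of all 3 controls.

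Of 10 partners of the particle tested, 1 passed with all arrays, against 12.2% of all genes tested. It was Txnl1, a thioredoxin bound to the 19S particle. Txnl1 had log2 levels of 7.25, 7.47 and 7.24 in low arginine, against 8.24, 8.08 and 7.87 in control medium. It fell by 0.74 on the log2 scale (limma adjusted p = 0.0142). Pomp, the chaperone that completes core assembly, had 7.16, 7.27 and 6.85 in low arginine and 8.36, 7.37 and 7.16 in control medium (log2 difference -0.54, adjusted p = 0.299). The deubiquitinases Usp14 and Uchl5 had log2 differences of -0.19 and -0.78 (adjusted p = 0.688 and 0.191), Uchl5 with no overlap. Without control replicate 1, the log2 differences of Pomp and Uchl5 were -0.17 and -0.34 (adjusted p = 0.477 and 0.141). Sem1, the smallest 19S subunit, had 8.04, 8.00 and 7.91 in low arginine and 8.74, 8.45 and 8.21 in control medium (log2 difference -0.48, adjusted p = 0.0789). Ube3c, a ubiquitin ligase of the proteasome, had 7.57, 7.66 and 7.60 in low arginine and 7.56, 7.13 and 7.08 in control medium, with no overlap, and Zfand2a had 5.81, 5.71 and 5.51 in low arginine and 5.73, 5.24 and 4.87 in control medium (log2 differences 0.36 and 0.39, adjusted p = 0.161 and 0.29). When control replicate 1 was left out both were higher (0.51 and 0.62, adjusted p = 0.0118 and 0.024), and Txnl1 was again lower. That fit called 11.0% of all genes tested higher and 11.5% lower. The groups did not overlap for 6 of the 10 (60%), against 32.2% of all genes tested. Of these, Ube3c was higher in low arginine and 5 were lower: Sem1, Uchl5, Txnl1, Ecpas and Zfand5. Ecpas and Zfand5 had log2 differences of -0.26 and -0.34 (limma adjusted p = 0.145 and 0.127). The median change of the 10 was -0.30 on the log2 scale with all arrays. Adrm1 and Uba1, also on the lists, were not analysed here.

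Of 12 tested genes of proteasome transcription, 1 passed with all arrays, against 12.2% of all genes tested. Keap1, which holds Nfe2l2 for degradation, had log2 levels of 5.43, 5.38 and 5.34 in low arginine and 6.14, 6.15 and 5.85 in control medium, and fell by 0.66 on the log2 scale (limma adjusted p = 0.0142). The mean over its 2 probe sets fell by 1.74 (adjusted p = 0.00468), so they disagree in size. Nfe2l1, the factor that raises proteasome genes when degradation falls short, had 6.18, 6.54 and 6.19 in low arginine, against 5.63, 6.01 and 5.94 in control medium, with no overlap (log2 difference 0.44, adjusted p = 0.105). Nfe2l2, the oxidative stress factor of the same family, had 6.41, 6.87 and 6.62 in low arginine and 5.96, 6.45 and 6.42 in control medium (log2 difference 0.35, adjusted p = 0.254). Control replicate 1 was the lowest of the controls for both. Nfyc, a subunit of the factor that binds the CCAAT box, had 6.48, 6.63 and 6.65 in low arginine and 6.43, 5.80 and 5.78 in control medium (log2 difference 0.58, adjusted p = 0.0827). Nfyb, another subunit of that factor, had 5.72, 5.90 and 5.72 in low arginine and 6.07, 6.16 and 6.55 in control medium, with no overlap (log2 difference -0.48, adjusted p = 0.0803), and Nfya differed by -0.04. With control replicate 1 left out, 1 of the 12 was higher, Nfyc (0.80, limma adjusted p = 0.00285). In that fit 3 were lower, Keap1, Nfyb and the deglycosylase Ngly1 (-0.61, -0.57 and -0.60, adjusted p = 0.0116, 0.0272 and 0.0205). Over all genes tested, 11.0% were higher and 11.5% lower in it.

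Of 8 tested genes of ubiquitin activation and substrate delivery, 0 passed by limma with all arrays, against 12.2% of all genes tested. Their median change was 0.20 on the log2 scale. Ufd1, which works with the unfoldase Vcp, had log2 levels of 7.51, 7.62 and 7.56 in low arginine, against 7.30, 6.86 and 7.11 in control medium, with no overlap (log2 difference 0.47, adjusted p = 0.06). The shuttle Ubqln4 had 6.15, 6.27 and 6.35 in low arginine and 5.99, 5.88 and 5.71 in control medium, with no overlap (log2 difference 0.40, adjusted p = 0.0719). Of the 8, 4 were higher without control replicate 1: Ufd1, Ubqln1, Ubqln2 and Ubqln4, by 0.47 to 0.58 on the log2 scale (limma adjusted p = 0.0124 to 0.0389). In that fit 11.0% of all genes tested were higher. Vcp itself differed by 0.03 with all arrays (adjusted p = 0.962).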

How the data were processed

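RNA of stimulated CD4+ T cells was measured on 6 arrays, 3 from low arginine and 3 from control medium. The values deposited by the authors are log2 expression per probe set, already normalized between arrays; oligo is the package listed in the submitters' processing notes. How background was corrected, how probes were summarized, which oligo version ran and which log base was used is not given in the sources used here. Base 2 was taken from the range (0.9563 to 12.41). The files used held no detection calls, and the number of arrays limits the precision. Of 41345 probe sets, 23521 named exactly 1 gene and were used, 1814 named several and 16010 none. The dimmest share of 0.333 of the genes (mean up to 2.484) was left out.

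The comparison used lmFit and eBayes of limma 3.58.1 (R 4.3.3), with group as the only term and two-sided p-values. Benjamini-Hochberg adjustment ran over the 14787 genes tested, with a threshold of 0.05. The test was checked on simulated data with independent noise, equal in spread on every array for a given gene. The arrays here differed in spread, so that check does not cover their setting. Pairs of subunits were compared by exact permutation over arrays (scipy 1.17.1); figures were drawn with matplotlib 3.10.9. The members, lists and tests were chosen with earlier results of these data known. Named with values were members past the threshold, the catalytic subunits, activators and assembly chaperones, in each group the member with the largest rise, the largest fall and the highest mean, listed genes past the threshold, and a few listed genes whatever their result; Psma6, Psmc2, Psmd1, Psmd7, Psmd9, Psmd14, the members whose groups did not overlap and some listed genes were added after their values were seen. Alternatives were other normalizations, filters, probe set rules, priors, array weights, a replicate block and leaving out each array. Promoters are from RefSeq, build GRCm38.p6.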

Additional observations from a re-analysis of the deposited data

How the results depend on the processing

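Psmb9 and Psmc6 kept their direction under every alternative tried. Psmb9 passed under the other normalizations, filters, probe set rule, prior, array weights and the replicate block; Psmc6 did not pass with a trended and robust prior (adjusted p = 0.0509). The number of members lower was 1 with the trended and robust prior, 5 with array weights and between 0 and 2 with single arrays left out; the number higher was 15 with array weights and between 0 and 15 with single arrays left out. Over all genes, 5514 passed with array weights and between 500 and 3325 with single arrays left out, against 1799. Of the other calls named, that of Txnl1 was lost in 3 of the fits with an array left out (control replicate 2, low arginine replicates 1 and 3; adjusted p = 0.053 to 0.0677). That of Xbp1 was lost in 4 (control replicate 2 and each low arginine replicate; adjusted p = 0.0544 to 0.0754), and that of Keap1 in 3 (control replicate 2, low arginine replicates 2 and 3; adjusted p = 0.0666 to 0.0678). Centring on the 75th percentile gave 535 genes higher and 1190 lower over all genes, against 767 and 1032. The 3 pair differences kept their sign in each setting tried, between -0.81 and -0.32 for Psmb8 against Psmb5. With the replicate number as a block 1 member was lower and 1568 genes passed, Psmc6 having an adjusted p of 0.0858. Deviations of arrays with the same number correlated at 0.121, 0.0588 and 0.141. Those of arrays with different numbers correlated lower, at -0.134 to 0.0426. The labels do not say that equal numbers mark pairs, and the main fit did not take them as pairs. Whether they share a source was not tested.

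Uncalled log2 changes that turned sign with single arrays left out ranged from -0.16 to 0.12 for Psmb10, -0.02 to 0.34 for Psmb3, -0.24 to 0.12 for Psmb4, -0.43 to 0.04 for Psmc1, -0.01 to 0.45 for Psmc2, -0.06 to 0.27 for Psmc3, -0.38 to 0.43 for Psmd1, -0.33 to 0.01 for Psmd10, -0.18 to 0.36 for Psmd12, -0.38 to 0.18 for Psmd13, -0.28 to 0.22 for Psmd2, -0.30 to 0.26 for Psmd3, -0.33 to 0.30 for Psmd6, -0.15 to 0.52 for Psmd7, -0.19 to 0.19 for Psme2, -0.23 to 0.14 for Psmg1, -0.05 to 0.17 for Psmg3, -0.12 to 0.01 for Tap1, -0.05 to 0.15 for Tap2, -0.15 to 0.37 for Vcp and -0.39 to 0.10 for Usp14. With array weights the changes of Psma5, Psmb10, Psmb4, Psmd1, Psmd2, Psmd3, Psmd6 and Psmg1 turned to -0.02, 0.05, 0.01, 0.26, 0.12, 0.10, 0.23 and 0.05. Centred on the 75th percentile, Psmc3, Psmd12, Psme2, Tap2 and Vcp changed by -0.0045, -0.02, -0.02, -0.02 and -0.03. Vcp changed by -0.01 with median centring and -0.14 as the mean of its probe sets, and after quantile normalization Psme2 by -0.04. The cause of these turns was not tested.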

Other observations

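Probe sets outside the comparison add the following values. The brighter probe set for Psma4, an alpha subunit, which also names another gene, had log2 levels of 7.38, 7.20 and 7.16 in low arginine, against 7.99, 7.36 and 7.26 in control medium, a log2 difference of -0.29 with overlap (exact permutation test, two-sided, p = 0.3). Its highest array was control replicate 1, as for most members. The dimmer probe set for the same pair of genes had 2.35, 2.47 and 2.57 in low arginine and 2.62, 2.85 and 2.63 in control medium, which is near the dim limit. The second probe set of Psmc2 had 5.69, 5.52 and 5.26 in low arginine and 5.62, 5.60 and 5.00 in control medium, a log2 difference of 0.08 (exact permutation p = 0.8), beside 0.18 for the one used. On that probe set control replicate 1 was not the highest array.

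The weights that limma gave the arrays from their fit over all genes were 1.02, 1.45 and 1.08 for low arginine replicates 1, 2 and 3, and 0.239, 5.19 and 0.506 for control replicates 1, 2 and 3. With these weights, 15 members were higher and 5 lower in low arginine, beside 18.8% and 18.5% of all genes tested. Of the 15 genes, 14 were also higher without control replicate 1. The 5 lower genes were Psma1, Psmb1, Psmb9, Psmc6 and Psme4. Control replicate 2 thus counted for more than any other array in these calls.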
